A study of Mus musculus with 12 samples.

Results

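The bromodomain protein BRD2 was called at 350 regions both after RANKL alone and after the inhibitor I-BET alone, but not in untreated cells. They were chosen as the regions of the BRD2 peak list under RANKL that overlap, by at least 1 bp, a BRD2 region under I-BET and no BRD2 region of untreated cells. They make up 350 of the 1716 BRD2 regions under RANKL (20.4%) and overlap 351 of the 1067 regions under I-BET (32.9%). The 8 peak lists of the series hold 16188 regions in all. Because the regions were chosen by the measured calls in these 3 lists, the presence under RANKL and under I-BET and the absence from untreated cells are given as a description and support nothing further.

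The measurements were ChIP-seq of BRD2 and BRD3 in RAW264.7, an established mouse monocyte and macrophage line that forms osteoclasts when given RANKL. Cells were untreated, or held for 4 h with RANKL at 50 ng/ml, with I-BET at 500 nM, or with both agents, and every group is the same unmodified line crosslinked for 15 min in 1% formaldehyde. Each antibody and treatment has 1 library, so no value below has a replicate error and no difference between treatments has a replicate check. The lists give neither reads nor depth, and the number of called regions ranged from 245 to 1716 for BRD2 and from 2232 to 3840 for BRD3. Of 10 macrophage markers, 7 had a BRD2 region at a gene end under RANKL and 6 under I-BET, the lists in which a call was required. The number was 2 in untreated cells and 1 with both agents. For BRD3 it was 4 in untreated cells, 7 under RANKL, 1 under I-BET and 0 with both agents. No list of either protein had a region at any of 5 lymphoid or 5 stromal markers.

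BRD2 and BRD3 belong to the BET family, whose paired bromodomains hold acetylated lysines on histone tails at active promoters and enhancers and help recruit the transcription machinery. I-BET compounds occupy the pocket that takes up the acetylated lysine. RANKL acts through its receptor RANK and through NF-κB, and turns macrophage precursors towards the osteoclast fate.

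Many of the regions lie on promoters, and the sequences shown here are the 250 bases before the transcription start of 6 of the genes, chosen to show motifs that were counted over all promoters. The first group holds a perfect NRF1 site, in capitals, at genes whose region was also called for BRD3 in all 4 treatments. Brd2 encodes BRD2 itself, Map2k2 the MAP kinase kinase MEK2 and Selenot a selenoprotein of the endoplasmic reticulum. All sequences are from RefSeq, build GRCm38.p6, and are written 5′ to 3′ along the strand of the gene.
Brd2 (chr17:34122608-34122857, minus strand): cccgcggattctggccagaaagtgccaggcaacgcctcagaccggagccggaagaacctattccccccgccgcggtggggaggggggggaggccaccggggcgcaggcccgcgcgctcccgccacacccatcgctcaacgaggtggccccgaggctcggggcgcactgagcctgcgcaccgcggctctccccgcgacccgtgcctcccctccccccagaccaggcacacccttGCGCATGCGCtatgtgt
Map2k2 (chr10:81105665-81105914, plus strand): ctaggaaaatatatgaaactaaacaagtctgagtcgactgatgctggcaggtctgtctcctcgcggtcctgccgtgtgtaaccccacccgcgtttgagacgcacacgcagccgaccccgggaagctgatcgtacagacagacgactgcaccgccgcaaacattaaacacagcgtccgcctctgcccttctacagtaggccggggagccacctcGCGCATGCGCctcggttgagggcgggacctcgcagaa
Selenot (chr3:58576386-58576635, plus strand): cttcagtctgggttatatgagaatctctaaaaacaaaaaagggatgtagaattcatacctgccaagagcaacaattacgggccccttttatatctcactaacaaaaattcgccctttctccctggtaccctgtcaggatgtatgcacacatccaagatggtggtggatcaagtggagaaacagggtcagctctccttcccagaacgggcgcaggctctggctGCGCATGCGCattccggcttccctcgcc
The second group shows ETS-type letters, in capitals: CCGGAAGT, or its reverse complement, at 2 ribosomal protein genes, and GAGGAAGT, a form bound by the macrophage factor PU.1, at the NF-κB subunit gene Rel. The Rpl35 sequence also holds GAGGAAGT, left in lower case. Mrpl51 encodes a protein of the mitochondrial ribosome and Rpl35 one of the cytosolic ribosome.
Mrpl51 (chr6:125191950-125192199, plus strand): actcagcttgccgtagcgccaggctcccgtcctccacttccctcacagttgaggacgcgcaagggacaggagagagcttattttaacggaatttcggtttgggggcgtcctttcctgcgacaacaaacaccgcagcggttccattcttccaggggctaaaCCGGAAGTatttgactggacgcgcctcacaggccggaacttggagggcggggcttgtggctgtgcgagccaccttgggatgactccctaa
Rpl35 (chr2:39005132-39005381, minus strand): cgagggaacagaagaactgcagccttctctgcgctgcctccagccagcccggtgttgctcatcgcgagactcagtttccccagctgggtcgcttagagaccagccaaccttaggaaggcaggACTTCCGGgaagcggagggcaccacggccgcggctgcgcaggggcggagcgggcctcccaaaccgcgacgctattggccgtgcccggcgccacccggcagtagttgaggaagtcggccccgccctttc
Rel (chr11:23770970-23771219, minus strand): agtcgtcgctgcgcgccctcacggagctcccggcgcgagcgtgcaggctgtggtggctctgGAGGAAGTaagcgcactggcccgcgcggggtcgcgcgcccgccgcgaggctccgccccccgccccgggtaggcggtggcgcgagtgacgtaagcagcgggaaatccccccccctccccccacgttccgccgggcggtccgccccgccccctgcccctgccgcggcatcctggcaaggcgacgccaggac
The NRF1 letters begin 17 bases before the start of Brd2, 37 before that of Map2k2 and 28 before that of Selenot. The ETS letters begin 90 bases before the start of Mrpl51 and 128 before that of Rpl35, and the PU.1 letters 189 before that of Rel.

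In base pairs, the choice of regions was clear of its overlap limit. It also rests on the cutoff of the peak calling, which base pairs do not show. The lowest score was 34.3 in each of the 3 lists. The chosen regions had a median score of 43.3 under RANKL and 44.2 under I-BET. The smallest overlap of a chosen region with an I-BET region was 253 bp, at Kpnb1, which encodes a nuclear import receptor (chr11:97187347-97187902). The closest region left out for want of an I-BET call lay 1265 bp from one. On the other side, the chosen region nearest to an untreated call lay 1574 bp from it (chr8:122564559-122565405), followed by Capg at 4073 bp and Ctss at 4911 bp. The smallest untreated overlap that excluded a region was 267 bp, at Kat6a. The median distance of the 350 regions to the nearest untreated call was 739229 bp, and 24 lay within 50 kb of one.

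In the lists that chose them, the regions varied widely in width. Under RANKL the median was 998 bp (quartiles 709 and 1543, range 327 to 7128), and the overlapping I-BET regions had a median of 876 bp. Of the 350, 223 were wider under RANKL and 127 narrower. Across the 350 regions the widths in both lists had a Spearman rho of 0.69, whereas the authors' scores had a rho of 0.13. Both rhos are descriptions over regions that share the same libraries. The score thus ordered the regions differently in the 2 lists: 12 had a score above 100 under RANKL, 52 under I-BET and 2 in both. Some high scores lay together on a chromosome, as described further on.

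**Figure D1:**
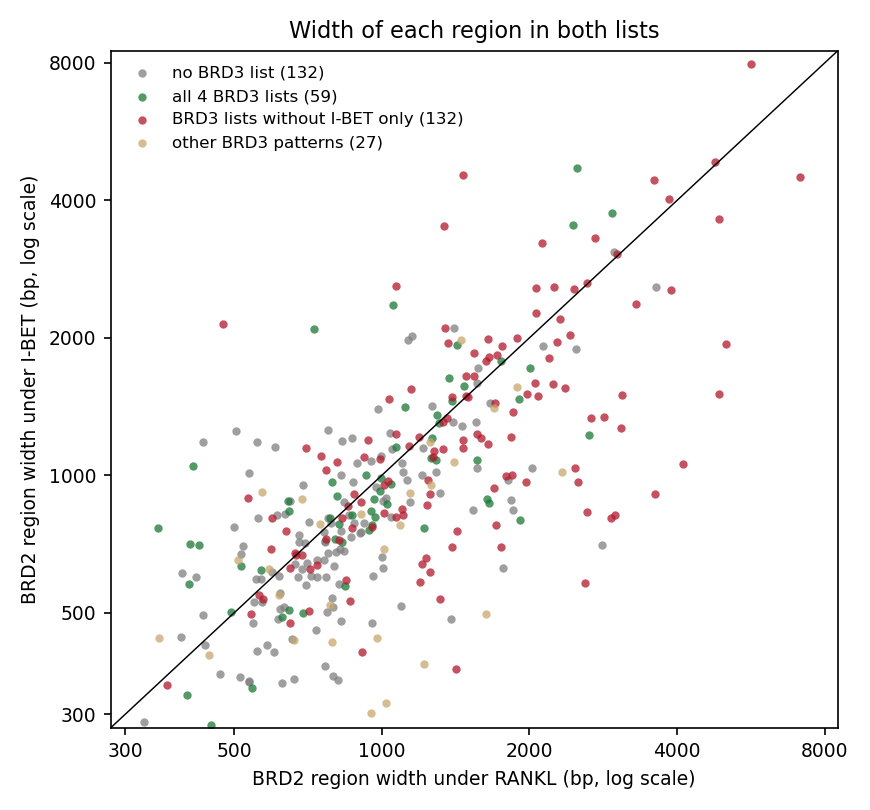
Width of each of the 350 BRD2 regions under RANKL (horizontal axis, bp, log scale) against that of the overlapping I-BET region (vertical axis, bp, log scale), with the line of equal width. Points are coloured by the BRD3 lists that overlap the region, and 38 of the 50 regions above 2000 bp under RANKL belong to the 132 with BRD3 only in lists without I-BET.

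When RANKL and I-BET were given together, few of these regions were called for BRD2. Of the 350, 50 overlapped a BRD2 region of the combined treatment (14.3%, exact Clopper-Pearson 95% interval 10.8% to 18.4%), against 9.21% of all BRD2 regions under RANKL. This list was not used in the choice. The share was 15.6% (10.2% to 22.3%) of the 154 RANKL regions called in untreated cells and not under I-BET, so it was close to that of the chosen regions, with intervals that overlap. It was 2.31% (1.49% to 3.42%) of the 1039 called neither in untreated cells nor under I-BET, and 34.7% (27.6% to 42.3%) of the 173 called in untreated cells and under both agents given singly. The chosen regions thus lay between these last classes, whose intervals do not overlap theirs. All intervals cover counting error only. The chosen regions are wider than the 1039, whose median width was 799 bp. Among regions of 300 to 709 bp the shares were 10.2% (4.78% to 18.5%) and 1.21% (0.395% to 2.81%), among those of 710 to 1110 bp 13.3% (7.62% to 20.9%) and 3.39% (1.76% to 5.85%), and among wider ones 17.4% (11.7% to 24.5%) and 2.56% (1.04% to 5.21%). The order of the 2 classes is thus the same at each width. The chosen regions and the 154 each had by definition a call in 1 list beside RANKL, and the 1039 had none.

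The 50 regions called again with both agents were mostly narrower there. Their median width was 1138 bp under RANKL, 989 bp under I-BET and 706 bp with both, and 44 were narrower with both agents than under RANKL. Among the listed genes, 6 of the 14 cytosolic ribosomal protein genes described further on had such a region, as had the translation factor gene Eif3d, the chaperonin gene Cct7 and the protease gene Ctss. Of the 245 BRD2 regions of the combined treatment, 50 (20.4%) thus overlapped the chosen set.

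**Figure D2:**
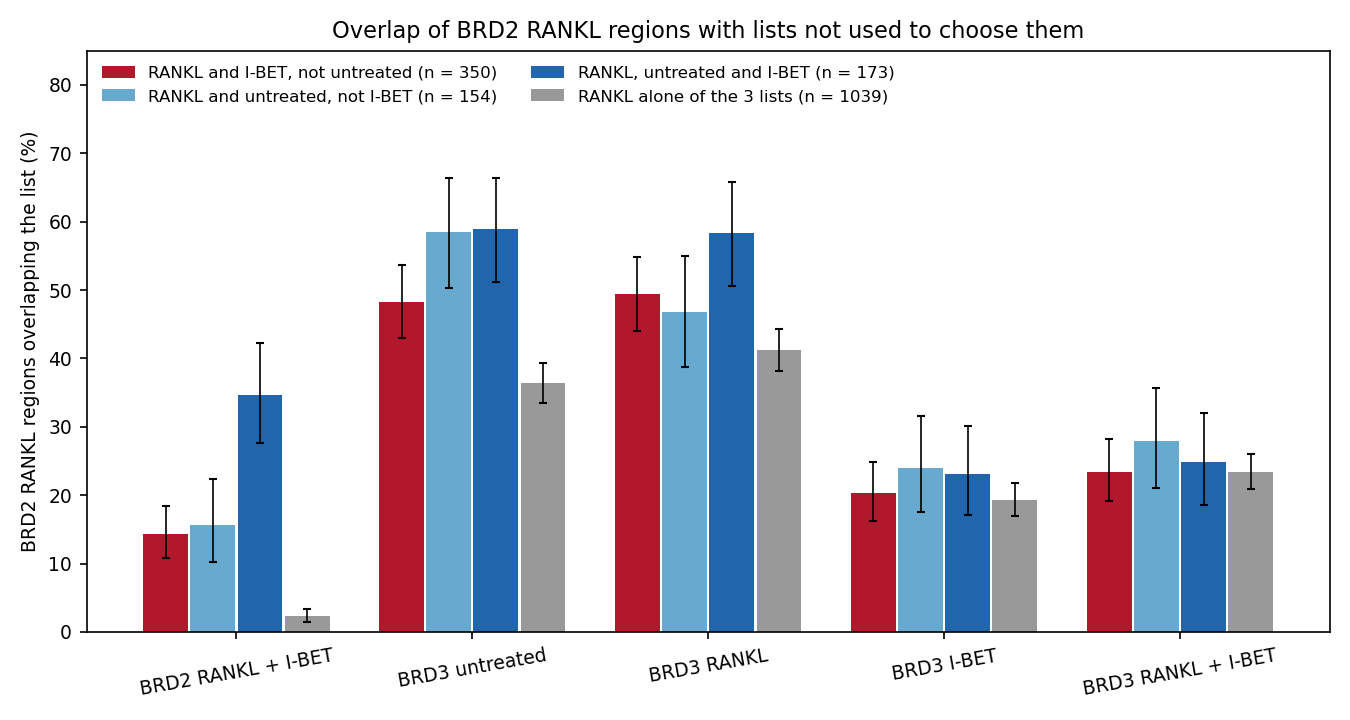
Share (%) of 4 classes of BRD2 RANKL regions that overlap each of 5 lists not used to form the classes, with exact 95% binomial intervals as bars. With both agents the BRD2 shares were 14.3% for the 350 chosen regions, 15.6% for the 154, 34.7% for the 173 and 2.31% for the 1039, whereas with BRD3 under I-BET they ran from 19.2% to 24.0%.

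BRD3 was measured in separate libraries, and it occupied 218 of the 350 regions in at least 1 treatment (62.3%, 57.0% to 67.4%; 56.9% of all BRD2 RANKL regions). In untreated cells, where BRD2 was not called, 169 of the regions overlapped a BRD3 region (48.3%, 42.9% to 53.7%), against 43.1% of all RANKL regions. The chosen regions lay between the 1039, at 36.4% (33.4% to 39.4%), and the 154 and 173 that had BRD2 in untreated cells, at 58.4% (50.2% to 66.3%) and 59.0% (51.2% to 66.4%). Among regions of 300 to 709 bp the chosen ones and the 1039 stood at 37.5% (27.4% to 48.5%) and 31.3% (26.9% to 36.0%). Among those of 710 to 1110 bp the shares were 37.2% (28.3% to 46.8%) and 34.7% (29.8% to 40.0%), and among wider ones 63.1% (54.8% to 70.8%) and 46.2% (40.1% to 52.3%). The intervals overlap except among the wider regions. Under RANKL the number was 173 (49.4%, 44.1% to 54.8%), against 45.1%. Under I-BET it was 71 (20.3%, 16.2% to 24.9%), equal to the 20.3% of all RANKL regions, and with both agents 82 (23.4%, 19.1% to 28.2%), against 24.0%. BRD3 was thus called at fewer of the regions in both lists with I-BET than in both lists without it, as it was over all BRD2 RANKL regions, and the BRD3 lists with I-BET are also the shorter ones.

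Followed region by region, 106 of the 169 regions with BRD3 in untreated cells had no BRD3 call under I-BET, and 63 had one (37.3%, 29.97% to 45.0%), against 42.2% (38.6% to 45.9%) of all BRD2 RANKL regions with BRD3 in untreated cells. Of the 173 with BRD3 under RANKL, 96 had none when I-BET was added and 77 had one (44.5%, 37.0% to 52.2%), against 48.7% (45.1% to 52.3%) of all. In both cases the intervals overlap. Seen from the BRD3 list of untreated cells, 169 BRD3 regions overlapped a chosen BRD2 region, and 65 of them overlapped a BRD3 region under I-BET (38.5%, 31.1% to 46.2%), against 53.2% of all 3668. These 169 are wide, with a median of 1178 bp against 696 bp for the other BRD3 regions. In the 4 width quartiles, from narrow to wide, the share at chosen regions was 37.5% (8 regions), 42.9% (21), 51.0% (51) and 30.3% (89), and for the other BRD3 regions 51.2%, 68.0%, 57.9% and 37.4%. It was lower at chosen regions in each quartile, and the intervals of the 2 sets overlap in each. RANKL calls of BRD3 were alike in number: 74.6% of the 169 and 75.5% of the others overlapped one.

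The BRD3 calls sorted nearly all of the 350 regions into 3 groups. There were 132 regions in no BRD3 list (37.7%, against 43.1% of all BRD2 RANKL regions) and 59 in all 4 (16.9%, against 16.3%). Another 132 had BRD3 in one or both of the lists without I-BET and in neither list with it (37.7%, against 31.7%). The last share was 37.0% of the 154, 45.1% of the 173 and 26.7% of the 1039. The remaining 27 had other combinations. Of the third group, 56 had BRD3 in untreated cells and under RANKL, 38 under RANKL only and 38 in untreated cells only.

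**Figure D3:**
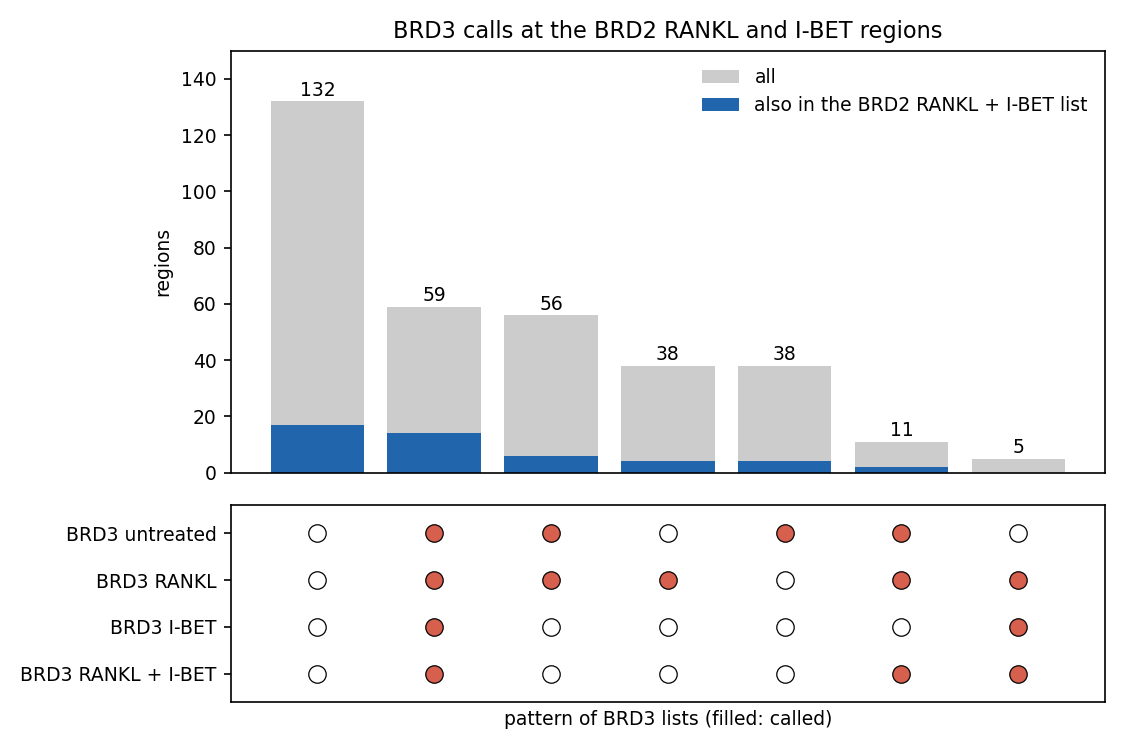
Number of the 350 BRD2 regions (vertical axis) with each pattern of BRD3 calls shown by the filled circles, for patterns with at least 5 regions, and the part of each also called for BRD2 with both agents. The commonest patterns were no BRD3 call (132), a call in all 4 treatments (59) and a call in untreated cells and under RANKL only (56).

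The 3 groups are described here by width and place. Regions with BRD3 only in lists without I-BET had a median BRD2 width of 1421.5 bp under RANKL, against 962 bp for those with BRD3 in all 4 lists and 794 bp for those with none. They lay within 1 kb of an end of a protein-coding gene in 48.5% of cases (39.7% to 57.3%), and 36.4% lay between genes. The share at gene ends was 84.7% (73.0% to 92.8%) with BRD3 in all 4 lists and 75.8% (67.5% to 82.8%) with no BRD3. For all 350 it was 67.7% (62.5% to 72.6%), against 65.9% of all BRD2 RANKL regions, while 40 regions lay in gene bodies and 73 between genes. A long noncoding RNA gene was overlapped by 53 regions (15.1%, 11.6% to 19.3%), against 13.9% of all BRD2 RANKL regions. On chromosomes with annotated start windows, 173 of 338 regions covered a transcription start (51.2%, 45.7% to 56.6%). By group this was 35.2% (26.9% to 44.2%) with BRD3 only without I-BET, 62.1% (48.4% to 74.5%) with BRD3 in all 4 lists and 59.7% (50.7% to 68.2%) with no BRD3. Of the 284 protein-coding genes with a chosen region within 1 kb of an end, only 228 had a start window. A region at a start without a window counts as not covering one, so these shares can be too low. With both agents BRD2 was called at 14 of the 132, 14 of the 59 (23.7%, 13.6% to 36.6%) and 17 of the 132 without BRD3; the first and last came to 10.6% (5.92% to 17.2%) and 12.9% (7.68% to 19.8%), and all 3 intervals overlap.

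Genes with a chosen region within 1 kb of an end numbered 284, which is 1.30% of 21883 protein-coding genes. All BRD2 RANKL regions marked 1360 genes (6.21%), so 20.9% of the genes marked under RANKL had a region of the chosen kind. The gene lists below are read against these shares and carry no test.

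Chosen regions lay at 5 macrophage identity genes, and at 4 of them they were wide. Of 36 such genes, 10 had a BRD2 region under RANKL and 5 of these a chosen one: Csf1r, the M-CSF receptor gene; Cd14 and Tlr2, which encode receptors for bacterial products; Msr1, the gene of the class A scavenger receptor; and Ctss, the gene of the lysosomal protease cathepsin S. At Csf1r the BRD2 region was 2721 bp wide under RANKL and 3313 bp under I-BET, and no BRD2 region was called there in untreated cells or with both agents. BRD3 at the same place was 3095 bp wide in untreated cells and 3294 bp under RANKL, and absent from both lists with I-BET. Csf1r thus had BRD3 without BRD2 in untreated cells and BRD2 without BRD3 under I-BET.

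Msr1 (chr8:39641195-39645046) showed the same order, with BRD2 at 3852 bp under RANKL and 4027 bp under I-BET, and BRD3 at 3109 bp in untreated cells and 3766 bp under RANKL. At Tlr2 (chr3:83839400-83842699) BRD2 was 3300 bp and 2377 bp wide, and at Cd14 2614 bp and 2630 bp. In both genes BRD3 was called under RANKL only, over 2310 bp at Tlr2 and 4485 bp at Cd14. Ctss (chr3:95526651-95527363) stood apart from these 4: its BRD2 region was narrow, 713 bp under RANKL and 623 bp under I-BET, it was called again with both agents at 726 bp, and BRD3 was called in untreated cells only. All 5 genes belong to the group with BRD3 only in lists without I-BET. The Tlr7 gene, for an endosomal receptor of single-stranded RNA, was the single one of 35 inflammatory genes with a chosen region, of 1888 bp under RANKL and 1993 bp under I-BET.

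**Figure D4:**
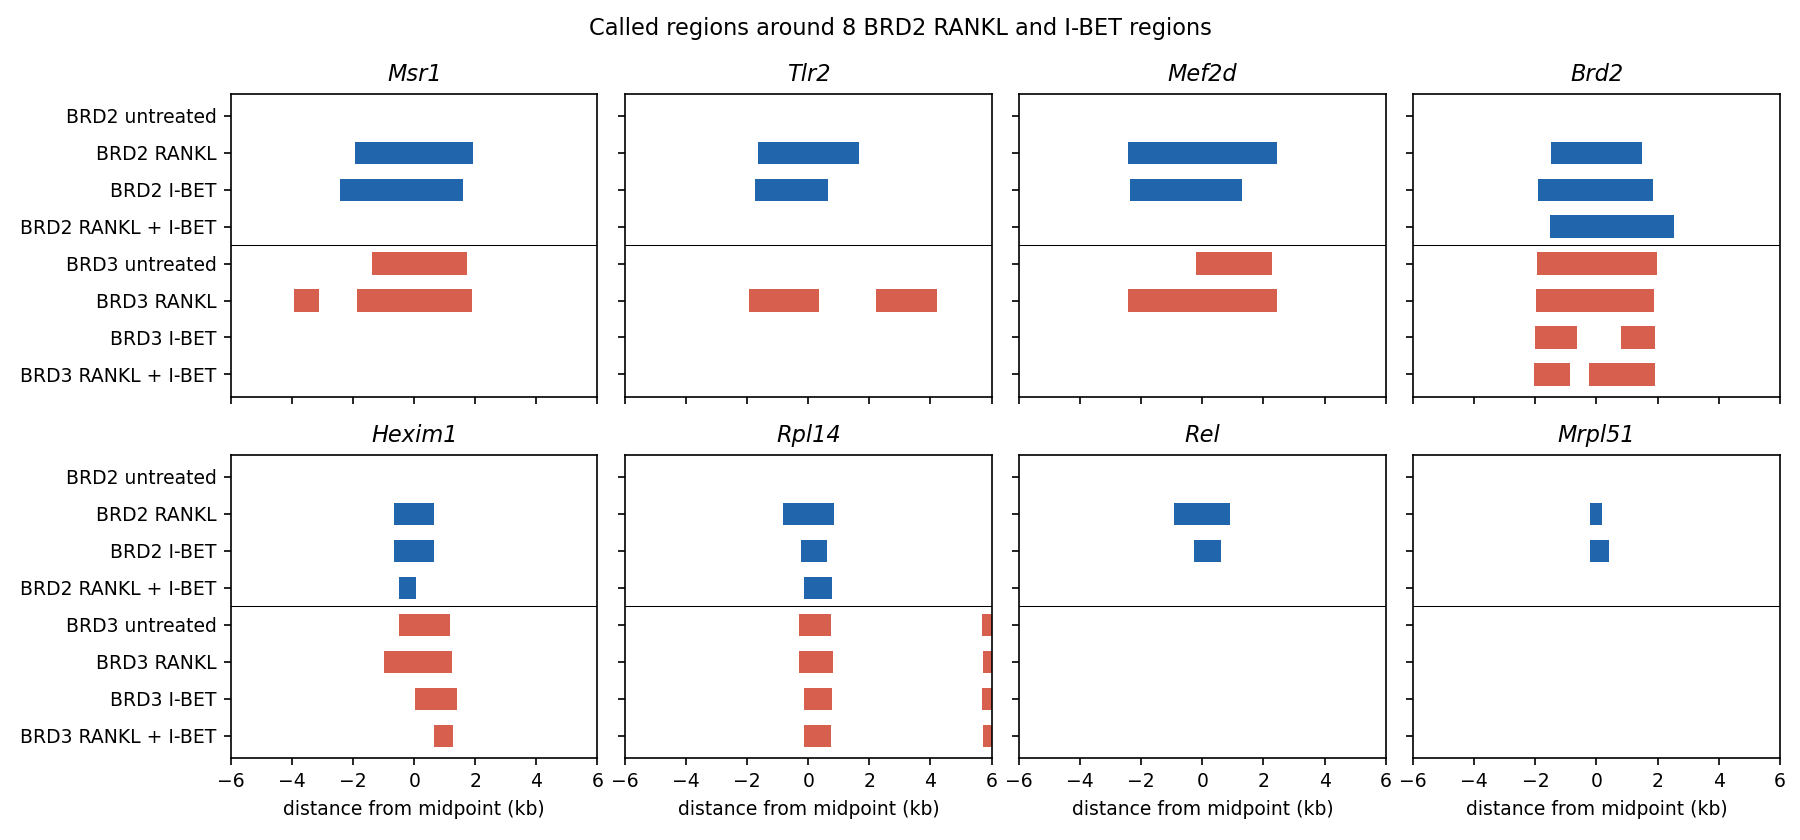
Called regions of BRD2 (blue) and BRD3 (red) in each treatment at 8 of the chosen regions, by distance (kb) from the midpoint of the BRD2 region under RANKL along the chromosome. Msr1, Tlr2 and Mef2d have no region of either protein with both agents, Brd2, Hexim1 and Rpl14 have regions of both, and Rel and Mrpl51 have no BRD3 region in any treatment.

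The other wide regions lay at further genes or away from genes. Mef2d, which encodes a MADS-box transcription factor, had 4863 bp of BRD2 under RANKL and 3648 bp under I-BET (chr3:88138406-88143268). BRD3 there was 2488 bp wide in untreated cells and 4896 bp under RANKL. Cd300lb, the gene of an activating receptor of myeloid cells, had 4778 bp and 4844 bp (chr11:114929511-114934288). The widest of all, 7128 bp under RANKL and 4491 bp under I-BET, lay between protein-coding genes (chr15:85665278-85672405), and the second widest at Frmd8, with 5661 bp and 7939 bp. Of the 10 widest regions, 9 had BRD3 only in lists without I-BET, and the exception, Bcl9, had BRD3 in none. The ubiquitous actin gene Actb belongs to the same group, with 3094 bp under RANKL, 2 regions under I-BET that come to 2528 bp in all, and BRD3 of 4479 bp and 4398 bp without I-BET. Above 2000 bp, 5 of 50 regions were called with both agents.

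The chosen regions at Brd2 and Hexim1 overlapped a BRD2 region in each of the 3 treatments and a BRD3 region in every list. Of 36 genes of BET proteins and transcription elongation, 6 had a BRD2 region under RANKL and 2 a chosen one: Brd2 itself and Hexim1, whose product holds the elongation kinase P-TEFb inactive. The region at the start of Brd2 (chr17:34119672-34122619), which also lies within 1 kb of an end of the antigen presentation gene H2-DMa, was 2948 bp wide under RANKL, 3755 bp under I-BET and 4055 bp with both, so it was widest with both agents. BRD3 was present there throughout, at 3902 bp in untreated cells, 3851 bp under RANKL, as 2 separate regions of 1361 bp and 1113 bp under I-BET, and as 2 of 2174 bp and 1182 bp with both. At Hexim1 (chr11:103114569-103115876) the BRD2 region was 1308 bp, 1300 bp and 544 bp wide, and BRD3 was called in all 4 treatments, between 634 bp and 2223 bp. A second chosen region of 738 bp lay inside the neighbouring paralog Hexim2.

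Cytosolic ribosomal protein genes gave the largest number of genes with a chosen region among the lists examined. Of 86 cytosolic ribosomal protein genes, 43 had a BRD2 region under RANKL and 14 a chosen one, among them Rpl4, Rpl7, Rpl9, Rpl14, Rpl29, Rpl35, Rpl38, Rps3 and Rps27a. Of these 14, 6 were called again with both agents, Rpl7, Rpl14, Rpl29 and Rpl35 among them. At Rpl14 (chr9:120570401-120572050) the BRD2 widths were 1650 bp under RANKL, 870 bp under I-BET and 927 bp with both. At Rpl29 (chr9:106429405-106429949) they were 545 bp, 476 bp and 352 bp. BRD3 was called in all 4 treatments at 6 of the 14 genes, in none at 5, only without I-BET at 1, Rps27a, and in other patterns at Rpl4 and Rpl35. The 14 include Rpl7l1, a gene related to Rpl7, which counts among the 6 called again and the 6 with BRD3 throughout. The list leaves out the related gene Rpl36al, which had a chosen region at an end and no BRD3 in any treatment.

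Mitochondrial ribosomal protein genes had another pattern. Of 78, 18 had a BRD2 region under RANKL and 6 a chosen one, Mrpl1, Mrpl27, Mrpl51, Mrps7, Mrps31 and Mrps34. None of the 6 overlapped a BRD3 region in any treatment or a BRD2 region with both agents, and their widths under RANKL ran from 392 bp at Mrpl51 to 918 bp at Mrpl1. A further chosen region lay at an annotated start of Mrpl48 inside the outer ends of that gene, also without BRD3, and was called with both agents at 474 bp. No difference from the cytosolic list was tested.

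**Figure D5:**
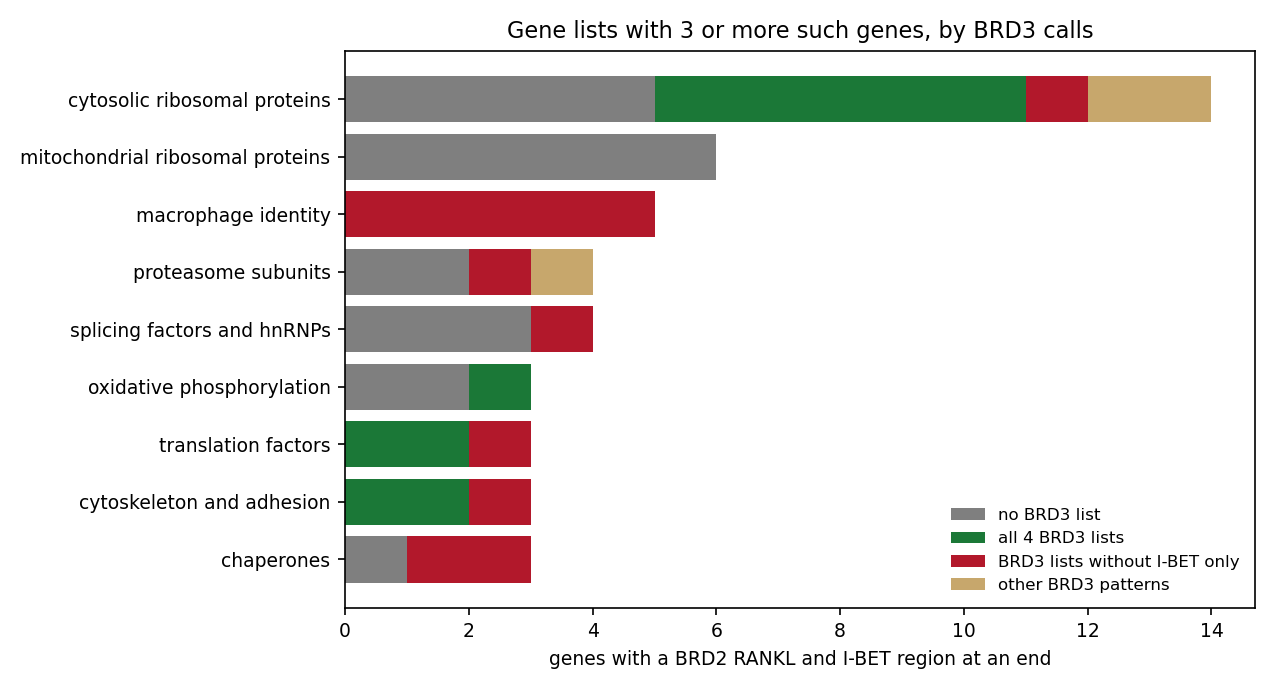
Number of genes (horizontal axis) with a chosen BRD2 region within 1 kb of an end, for gene lists with at least 3 such genes, divided by the BRD3 calls at the region. The 5 macrophage genes all have BRD3 only in lists without I-BET, the 6 mitochondrial ribosomal protein genes have none, and the 14 cytosolic ribosomal protein genes fall into all groups.

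Chosen regions lay at 2 of the 9 RANK and NF-κB signalling genes marked under RANKL, near the 20.9% of all genes so marked. Of 33 genes of RANK and NF-κB signalling, 9 had a BRD2 region under RANKL and 2 a chosen one, Rel, which encodes the subunit c-Rel (chr11:23769852-23771684), and Nfkbiz, which encodes the nuclear regulator IκBζ (chr16:55838376-55839173). The Rel region was 1833 bp wide under RANKL and 885 bp under I-BET, and that at Nfkbiz 798 bp and 632 bp. Neither had BRD3 in any list or BRD2 with both agents. Of 30 osteoclast genes, 0 had a BRD2 region under RANKL and so 0 a chosen one, and Nfatc1, Acp5 and Dcstamp had no region of either protein at a gene end in any list. Immediate early genes had 3 BRD2 regions under RANKL among 33 genes, and 0 chosen ones. Myc, Ctsk, Spi1, Cebpa, Itgb2, Ncf1, Klf6 and Lilrb4a, which were also looked up by name, had no chosen region either. At Klf6 BRD2 was called over 2615 bp under RANKL and 875 bp under I-BET, but at places that do not overlap, and Spi1, the PU.1 gene, had BRD2 already in untreated cells over 2750 bp.

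Other housekeeping lists held a few chosen regions each. Of 59 splicing factors and hnRNPs, 20 were marked under RANKL and 4 had a chosen region (Hnrnpc, Hnrnpr, Srsf3 and Sf3b3). For 43 proteasome genes the numbers were 8 and 4, and for 34 chaperones 12 and 3 (Hspa5, Cct7 and Dnajc7). They were 9 and 3 for 40 translation factors, 14 and 3 for 84 oxidative phosphorylation genes and 6 and 3 for 42 cytoskeleton genes. Splicing factors, oxidative phosphorylation and chaperones stood near the 20.9% of all genes marked under RANKL. The 98 replication-dependent histone genes had 10 genes marked under RANKL and 0 with a chosen region, and the 28 RNA polymerase subunit genes 4 and 0. Of these, only Sf3b3, Cct7 and Eif3d were called again with both agents.

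By the authors' score, the 3 leading chosen regions lay at gene ends without BRD3. Vps36, which encodes an ESCRT subunit of endosomal sorting, had a score of 375 under RANKL and 56 under I-BET, in regions of 436 bp and 425 bp (chr8:22192814-22193249). Mrps31 followed with 308 and 97.3, and the centriolar satellite gene Pcm1 with 236 and 104. Unc93b1, whose product carries nucleic acid sensing Toll-like receptors to endosomes, had 155 and 79. None of these 4 had BRD3 in any list. Nrf1, the gene of the factor whose motif is shown above, scored 207 and 133, with BRD3 in every treatment but RANKL. The score is the authors' own, serves only to rank regions within a list, and does not give the amount of protein bound. High scores also lay together on chromosomes. Vps36 and Mrps31 are both on chromosome 8. On chromosome 14 the I-BET scores were 291 at Saysd1, 204 at Zmiz1, 277 at Nek4 and 238 at Hnrnpc. They were 289 at Psmb5 and 291 at Zmym5, but 65 at chr14:61682568-61684197 and 39.7 at Naa16. The genes of the lists with a chosen region on chromosome 9 had I-BET scores of 270 at Rpl29, 180 at Ints14, 178 at Rpl14 and 167 at Rpl4. Whether the score depends on the chromosome was not tested.

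The promoters under these regions were rich in CpG, as were those of all BRD2 regions under RANKL. Over 227 promoter windows of 300 bases overlapped by a chosen region, the median GC content was 62.3% and the ratio of observed to expected CpG 0.86, against 62.0% and 0.86 for the 1185 windows of all RANKL regions and 56.3% and 0.57 for all 21237. The 21237 windows belong to 17468 of the 21883 protein-coding genes and leave out all of chromosome 18. The promoters of Csf1r and Cd14 are therefore in none of these values. Motifs were sought on both strands. The ETS letters CCGGAAGT were in 14.1% of the 227 windows, 14.3% of the 1185 and 5.15% of all. The shorter core GGAAGT, which both CCGGAAGT and GAGGAAGT contain, was in 40.1%, 38.1% and 24.8%, and GAGGAAGT in 5.29%, 3.97% and 3.13%. CCAAT was in 23.8% (18.4% to 29.9%), 32.5% and 38.2%. The AP-1 letters TGANTCA were in 7.05%, 3.97% and 6.99%. The chosen windows stand close to those of all RANKL regions in most of these motifs.

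The NRF1 motif fell within a single BRD3 group. It was in 9 of the 227 windows (3.96%), against 2.78% for all RANKL regions and 1.33% of all promoters, and all 9 belong to regions with BRD3 in all 4 treatments (16.4% of 55 windows, 7.77% to 28.8%). There were 0 in the 97 windows of the group without BRD3 and 0 in the 54 of the group with BRD3 only without I-BET. Windows of other BRD3 patterns, 21 in number, also had 0. The upper limits are 3.73%, 6.60% and 16.1%. This motif was singled out from all those sought after the values were seen. The 33 matching windows of all RANKL regions were not divided by BRD3 calls. The genes are Arhgdia, Atp5g2, Brd2, H2-DMa, Map2k2, Mettl22, Naa16, Selenot and Supt3. Brd2 and H2-DMa share 1 region and 1 site, so the 9 windows are not independent. CCGGAAGT had another order, with 20.4% (10.6% to 33.5%) in the group with BRD3 only without I-BET, 15.5% (8.92% to 24.2%) without BRD3 and 5.45% (1.14% to 15.1%) with BRD3 throughout, intervals that overlap. A match describes letters only, and binding of these factors was not measured.

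Some chosen regions lie close together on the genome. In all, 31 of the 350 had another within 50 kb, in 14 pairs and 1 group of 3, the latter at Cd14. Csf1r and Unc93b1 each had a partner region, that of Unc93b1 at Aldh3b1 (chr19:3929499-3932143). Lrrc8d, the gene of a subunit of the volume-regulated anion channel, held both regions of its pair, one with BRD3 under RANKL and one with none.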

How the data were processed

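ChIP-seq of BRD2 and BRD3 was analysed from 8 deposited peak lists, 1 per antibody and treatment; the 4 input libraries entered no comparison. The submitters' processing notes name the tools FastQC, Bowtie2 (2.3.4.1) and MACS2 (2.1.1.20160309), and the build mm10/GRCm38; settings are not given in the sources used here. Names kept in each list show that regions were mostly built from 3 peak sets, whose meaning is not stated. The score of a region is the authors' own value. Reads and depth are unknown.

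Overlaps of at least 1 bp, widths and gene ends (1 kb window, RefSeq GRCm38.p6) were computed with Python 3.11.15, numpy 2.4.6, pandas 2.3.3 and scipy 1.17.1; the overlap code was tested on simulated intervals. An overlap with the 1 kb window around a protein-coding gene end put a region there and marked the gene. No test between treatments was possible. Genes were named from gene lists, by score, by width, by calls with both agents, by BRD3 pattern and from a list of single genes. Outside that rule, Actb, Capg, Hexim2, Lrrc8d, Mrpl48, Rpl7l1, Rpl36al, the NRF1 genes and those at the overlap limits were picked with their values known. The regions and gene lists themselves were chosen with earlier results of these data known. Some genes are not reported here. Alternatives were stricter overlaps, a gap to untreated calls, shortened lists and other gene windows.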

Additional observations from a re-analysis of the deposited data

How the results depend on the processing

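Of 82 values recomputed under 8 alternatives, 67 stayed and 15 moved. Counts stayed if within 1.5 times, shares if within the interval of the main share, and median widths if within the quartiles of the main widths. An overlap of at least 50% of the shorter region or of 200 bp, and a gap of 1 kb or 10 kb to untreated calls, moved none of the 12 values each. These settings kept 347, 350, 350 and 345 regions, so their values could hardly move. In each of the 2 settings with shortened lists, 5 of 12 values stayed. With the top 50% of each BRD2 list by score, 120 regions met the rule, at 91 genes, with 1 macrophage, 6 cytosolic and 2 mitochondrial ribosomal protein genes, and BRD3 overlapped 15% of them under I-BET and 15% with both agents. With the 3 lists cut to 578 regions each, 63 regions met it, at 54 genes, with 2 macrophage, 2 cytosolic and 1 mitochondrial ribosomal protein genes, and BRD3 overlapped 41.3% under RANKL and 15.9% with both agents. Shortened lists hold fewer regions by construction, and an untreated call cut from its list can let in a region. A window of 5 kb put 75.4% of the regions at a gene end. No paired analysis was possible because each antibody and treatment has 1 library. Depth is unknown, so a missing call can reflect a shallow library as well as less binding, and the 2 cannot be told apart. Binomial intervals cover counting error only, and neighbouring regions are not independent.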

Other observations

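Chosen regions also lay at noncoding RNA genes, which the protein-coding gene lists do not cover. The region at the start of Malat1, an abundant nuclear RNA found at nuclear speckles (chr19:5802518-5805013), was 2496 bp wide for BRD2 under RANKL, 4698 bp under I-BET and 1705 bp with both agents. BRD3 was called there in all 4 treatments, at 3323 bp in untreated cells, 2599 bp under RANKL, 1770 bp under I-BET and 1678 bp with both. The neighbouring Neat1, the RNA scaffold of paraspeckles, was overlapped by the wide region at Frmd8 (chr19:5844352-5850012). It had 5661 bp under RANKL and 7939 bp under I-BET, BRD3 only in lists without I-BET and no BRD2 call with both agents. Malat1 and Neat1 thus carried a chosen region each, with different BRD3 calls.

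Dleu2, the host gene of microRNAs miR-15a and miR-16-1, had a region at its start (chr14:61682568-61684197) of 1630 bp under RANKL and 1777 bp under I-BET, with BRD3 of 1911 bp in untreated cells and 2164 bp under RANKL and none with I-BET. The microRNA host gene Mir99ahg (chr16:77328636-77329767) and the small nucleolar RNA host gene Snhg17 (chr2:158361044-158361650) had regions of 1132 bp and 607 bp under RANKL and no BRD3 in any list. These genes were picked after their values were seen.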
